A study of Homo sapiens with 9 samples.

Results

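The genes described here are 10 members of the BCL2 family of apoptosis regulators, chosen by gene symbol from the 58735 genes of the count table: BCL2, BCL2L1, MCL1, BCL2A1, BAX, BAK1, BBC3, PMAIP1, BID and BCL2L11. All 10 were present in the table, and 9 of them had enough reads to be tested, the exception being BCL2A1. RNA came from HEK293A, a line of human embryonic kidney cells, in which p65, the NF-kB subunit encoded by RELA, had been knocked out. Plasmids carrying p65 2CS, p65 WT or no insert (vector) were transfected, and after 24 h all 3 groups, vector included, were given TNF at 20 ng/mL for 2 h. Each group had 3 libraries, numbered 7 to 9 for p65 2CS, 4 to 6 for p65 WT and 1 to 3 for vector. The labels do not spell out the 2CS change, the plasmid's promoter, whether the knockout line is 1 clone, or whether the libraries came from separate cultures. The p-values therefore reflect the variation among these libraries, part of which may be technical. No library came from cells without TNF, so the response of these genes to TNF was not compared, and p65 protein was not measured. RNA was taken from whole cultures, in which a change in every cell and a larger change in the transfected cells alone, or fewer cells and less RNA per cell, cannot be told apart.

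BCL2 family proteins decide whether the outer membrane of mitochondria stays closed. BAX and BAK1 open it and release cytochrome c, pro-survival members (BCL2, BCL2L1, MCL1, BCL2A1) hold them back, and BH3-only members (BBC3, PMAIP1, BID, BCL2L11) neutralise the pro-survival proteins or activate BAX and BAK1 directly. TNF signals both for survival, through NF-kB, and for death, through caspase-8, which cuts BID into its active form. BCL2L1 and BCL2A1 are textbook NF-kB targets in lymphoid and myeloid cells. HEK293 lines carry adenovirus E1 genes, among them E1B, which encodes a viral relative of BCL2, and viral transcripts were not analysed here.

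The libraries held 17146134 to 25068515 counts with p65 2CS, 15989601 to 16507689 with p65 WT and 17923114 to 20162267 with vector. The transgene was plain in RELA, which averaged 25518 ± 1382 CPM with p65 2CS, 9003 ± 943 CPM with p65 WT and 67.7 ± 1.61 CPM with vector (CPM, counts scaled to library size after correction for composition, mean ± SD, n = 3 each). RELA was 2.83-fold higher with p65 2CS than with p65 WT, so that form and transcript level cannot be told apart in any difference between them. The 10 epithelial and neural genes used to check the cell line had a summed level of 2188 to 2257 CPM with p65 2CS, 2394 to 2466 CPM with p65 WT and 2516 to 2543 CPM with vector. That sum was carried by KRT8, NEFL, VIM, KRT18 and CDH2, while LHX1, PAX2, CDH1 and NEFM stayed under 10 CPM and EPCAM under 1 CPM in every library. Of the 9 tested, 5 passed with p65 2CS against vector, all of them lower, where 23.4% of all genes tested passed and 11.4% were lower. With p65 WT against vector 2 of the 9 rose and 3 fell, where 28.8% of all genes tested passed. The part of these marker changes in the values below was not tested.

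On a scale that corrects for gene length (TPM, the length-scaled share of a library), a BH3-only gene stood highest. PMAIP1 (NOXA, which binds MCL1 by preference) averaged 679 ± 22.4 TPM with p65 2CS, 643 ± 20.1 TPM with p65 WT and 690 ± 10.4 TPM with vector, at percentile 99.3 of the genes tested by its mean level. Its partner MCL1, a short-lived pro-survival protein, came next at 279 ± 7.61, 268 ± 1.11 and 297 ± 6.14 TPM in the same groups. BAX followed at 261 ± 5.27 TPM with p65 2CS, 262 ± 12.1 TPM with p65 WT and 263 ± 5.97 TPM with vector, and overlapped MCL1 in range with p65 WT but not with p65 2CS or vector. At the low end stood BCL2 itself, at 3.76 ± 0.655 TPM with p65 2CS, 4.04 ± 0.170 TPM with p65 WT and 4.36 ± 0.248 TPM with vector. BCL2, which gave the family its name, was the lowest of the 9 tested members, and PMAIP1 exceeded MCL1 by 2.32-fold with vector.

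The middle of that order differed between groups. BAK1 stood above BBC3 with p65 2CS (74.7 ± 3.29 against 71.6 ± 0.996 TPM) and with p65 WT (70.9 ± 0.393 against 64.6 ± 1.27 TPM). With vector BBC3 (84.3 ± 4.10 TPM) stood above BAK1 (75.0 ± 3.89 TPM), and in none of the 3 groups did the libraries of these genes overlap. BID and BCL2L1 were neighbours in all 3 groups, with overlapping ranges, at 27.7 and 26.8 TPM with p65 2CS, 36.4 and 33.4 TPM with p65 WT and 26.4 and 24.8 TPM with vector. BCL2L11 came after them, at 17.4 to 19.8 TPM by group mean. Summed by role, the BH3-only genes held 55.2% of the members' TPM with p65 2CS, 54.4% with p65 WT and 55.2% with vector. The pro-survival genes held 21.5 ± 0.431%, 21.8 ± 0.477% and 22.0 ± 0.535% in the same order, and the effectors 23.3 ± 0.532%, 23.8 ± 0.570% and 22.8 ± 0.144%. The BH3-only share is mostly 1 gene, PMAIP1, at 679 of 797 TPM with p65 2CS, 643 of 761 with p65 WT and 690 of 820 with vector. These shares cover the 10 members only and leave out other family genes, such as BCL2L12 at 107 to 119 TPM by group mean. Levels per length rest on the deposited gene length, which for all 10 genes equalled the union of annotated exons, and they depend on isoform use, which counts per gene do not show. For BCL2L1, 43.0% of the exon bases are shared with a gene on the other strand. With no stated strand setting, its level and its place beside BID are less certain.

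**Figure D1:**
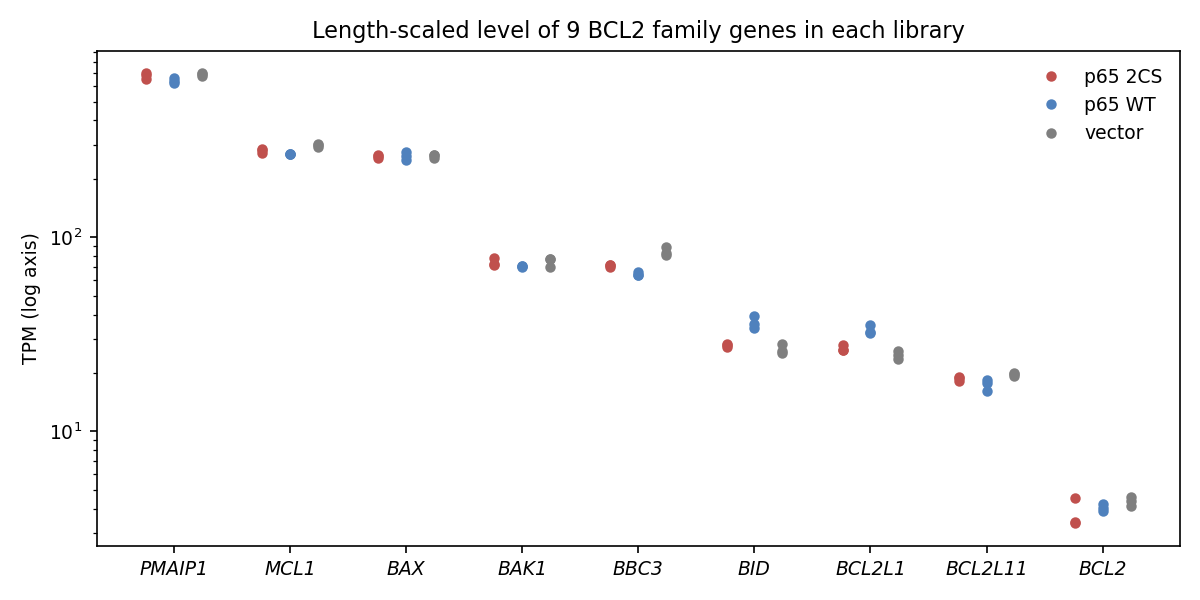
TPM of the 9 tested BCL2 family genes on a log axis, one point per library, with p65 2CS at the left, p65 WT in the middle and vector at the right of each gene. PMAIP1 lies highest at 624 to 700 TPM over all libraries and BCL2 lowest at 3.37 to 4.61 TPM, and BID and BCL2L1 lie higher with p65 WT than in the other groups.

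Sequence near the start sites was read from RefSeq windows (GRCh38.p14) of 300 bases, from 250 before to 50 after a gene's start, of which 14 belonged to 9 members. The NF-kB consensus, the site bound by p65 dimers, was searched on both strands. It occurred in 0 of the 14 windows, where 5.91% of all 35116 windows held it. The looser frame, GGG and CC with any 5 bases between them, which every match of the consensus also fits, occurred on either strand in 10 of the 14 windows, which belong to 6 of the 9 members, and in 58.7% of all windows. No match says only that these letters are not in these windows, and enhancers were not examined. Shown are the window bases upstream of the deposited 5′ end for the 3 members with the largest called changes, BID and BCL2L1, which were higher with p65 WT, and BBC3, which was lower with both forms. Capitals mark matches of the looser frame on either strand within the stretch shown, 2 for BID and none for the others.
BID, chr22:17774771-17774915, minus strand: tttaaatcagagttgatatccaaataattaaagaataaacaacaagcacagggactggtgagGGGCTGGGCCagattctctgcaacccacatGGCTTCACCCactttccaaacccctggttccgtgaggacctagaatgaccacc
BCL2L1, chr20:31723990-31724213, minus strand: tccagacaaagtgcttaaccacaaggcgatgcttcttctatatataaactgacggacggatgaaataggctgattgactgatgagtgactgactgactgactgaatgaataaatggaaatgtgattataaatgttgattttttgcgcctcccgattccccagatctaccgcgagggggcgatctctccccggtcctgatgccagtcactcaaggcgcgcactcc
BBC3, chr19:47232767-47232917, minus strand: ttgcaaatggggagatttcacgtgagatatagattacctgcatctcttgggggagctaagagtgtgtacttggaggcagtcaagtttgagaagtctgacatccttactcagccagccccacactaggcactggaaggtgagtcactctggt
The BID stretch has 145 bases, BCL2L1 224 and BBC3 151, and none overlaps an annotated exon.

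Among the pro-survival genes, BCL2L1 was the one that rose with p65 WT. BCL2L1 (ENSG00000171552, chromosome 20, 31664452 to 31723989, minus strand of GRCh38) encodes BCL-xL and, by splicing, the death-promoting BCL-xS, which gene counts cannot separate. It was at 24.4, 23.1 and 23.2 CPM with p65 2CS, 30.0, 29.7 and 32.8 CPM with p65 WT and 21.0, 23.0 and 22.2 CPM with vector. Every p65 WT library was above every library of the other groups, and the p65 2CS libraries lay just above the vector libraries. The log2 fold was 0.48 ± 0.07 (standard error) for p65 WT against vector, a rise of 39.5% (edgeR quasi-likelihood test, adjusted p = 6.7e-07). For p65 2CS against p65 WT it was -0.39 ± 0.07 (adjusted p = 2.5e-05), and for p65 2CS against vector 0.09 ± 0.07 (adjusted p = 0.39, 95% interval -0.05 to 0.24). An antisense gene, ABALON, covers 43.0% of the BCL2L1 exon bases on the other strand, and with no stated strand setting their reads cannot be told apart. ABALON had 306 reads over all libraries against 4179 for BCL2L1, and it passed the test in none of the comparisons (adjusted p = 0.17 to 0.58).

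MCL1 fell slightly with both p65 forms. MCL1 (ENSG00000143384, chromosome 1, 150574551 to 150579738, minus strand) was at 313, 331 and 328 CPM with p65 2CS, 327, 323 and 329 CPM with p65 WT and 355, 341 and 352 CPM with vector. All 6 p65 libraries lay below all vector libraries. It fell by 7.19% with p65 2CS (log2 fold -0.11 ± 0.03, adjusted p = 0.0035) and by 6.64% with p65 WT (-0.10 ± 0.03, adjusted p = 0.0059). The median of all genes tested was -0.0018 with p65 2CS and -0.02 with p65 WT on the same scale. The forms did not differ beyond their spread (-0.0085 ± 0.03, adjusted p = 0.86), with a 95% interval of -0.07 to 0.05.

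BCL2 (ENSG00000171791, chromosome 18, 63123346 to 63320128, minus strand), the founding pro-survival gene, passed the test in no comparison. It was at 10.5, 10.6 and 14.2 CPM with p65 2CS, 12.7, 13.1 and 13.8 CPM with p65 WT and 13.8, 13.0 and 14.6 CPM with vector. A pair of p65 2CS libraries was below all others, and the third, replicate 9, was within the vector range. The log2 fold for p65 2CS against vector was -0.23 ± 0.11 (adjusted p = 0.11), and without p65 2CS replicate 9 it became -0.39 (adjusted p = 0.0073). Over all fits with 1 library left out, it ranged from -0.39 to -0.15 (adjusted p from 0.0073 to 0.42). Against p65 WT it was -0.17 ± 0.11 (adjusted p = 0.24), and -0.32 without p65 2CS replicate 9 (adjusted p = 0.023). The range there was -0.32 to -0.09 (adjusted p from 0.023 to 0.64), so the passing values rest on leaving out the library that differed. For p65 WT against vector it was -0.06 ± 0.11 (adjusted p = 0.73, interval -0.28 to 0.16).

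BCL2A1 (ENSG00000140379, chromosome 15, 79960889 to 79971446, minus strand), which encodes BFL-1, was nearly silent in these cells whatever the plasmid. Reads per library were 1, 3 and 0 with p65 2CS, 1, 0 and 0 with p65 WT and 2, 2 and 0 with vector. Over a group this makes 4 reads or 0.0652 CPM with p65 2CS, 1 read or 0.0209 CPM with p65 WT and 4 reads or 0.0699 CPM with vector. The exact 95% Poisson intervals were 0.0178 to 0.167, 0.00053 to 0.117 and 0.0190 to 0.179 CPM in the same order and cover counting error only. These intervals overlap, but overlap is not a test, and no test of a difference is reported for BCL2A1. BCL2A1 is best known from leukocytes, and leukocyte and erythroid markers were near 0 as well. PTPRC had 1 read over all 9 libraries, CD3E 2, and MS4A1 and HBB none, and the summed level of 9 markers was 5.92 to 6.43 CPM with p65 2CS, 5.39 to 6.37 CPM with p65 WT and 4.50 to 4.96 CPM with vector. ITGAM, an integrin chain of myeloid cells, was the single marker of the 4 tested to pass in any comparison, at 1.45 ± 0.341 CPM with p65 2CS and 2.24 ± 0.377 CPM with p65 WT, against 0.421 ± 0.0670 CPM with vector (adjusted p = 0.00018 and 3.7e-07).

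The effectors BAX and BAK1 passed the test in no comparison. BAX (ENSG00000087088, chromosome 19, 48954815 to 48961798, plus strand), which moves from the cytosol to mitochondria, lay at 175 to 184 CPM with p65 2CS, 181 to 195 CPM with p65 WT and 178 to 186 CPM with vector. BAK1 (ENSG00000030110, chromosome 6, 33572547 to 33580293, minus strand), which resides in the mitochondrial membrane, lay at 42.8 to 45.9 CPM with p65 2CS, 43.0 to 44.1 CPM with p65 WT and 42.2 to 45.9 CPM with vector. The groups overlapped throughout. Intervals of the log2 fold for BAX were -0.10 to 0.04 for p65 2CS against vector, -0.02 to 0.11 for p65 WT against vector and -0.14 to -0.0044 for p65 2CS against p65 WT (adjusted p = 0.60, 0.36 and 0.10). The last of these passed without p65 WT replicate 4, the lowest BAX library of its group, at -0.10 with adjusted p = 0.028, and with scaling computed without RELA, at -0.09 with adjusted p = 0.042. Over all fits with 1 library left out, that log2 fold ranged from -0.10 to -0.05 (adjusted p from 0.028 to 0.37). For BAK1 the intervals were -0.13 to 0.09, -0.15 to 0.08 and -0.10 to 0.13 in the same order (adjusted p = 0.84, 0.73 and 0.91).

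Of the BH3-only genes, BID rose with p65 WT and BBC3 fell with both forms. BID (ENSG00000015475, chromosome 22, 17734138 to 17774770, minus strand), which carries the death receptor signal to mitochondria once caspase-8 has cut it, was at 32.0, 32.7 and 33.4 CPM with p65 2CS, 44.7, 41.6 and 49.0 CPM with p65 WT and 33.5, 30.1 and 31.2 CPM with vector. The p65 WT libraries were all above the rest, and the p65 2CS and vector libraries overlapped. BID rose by 43.0% with p65 WT over vector (log2 fold 0.52 ± 0.06, adjusted p = 1.6e-08) and was lower with p65 2CS than with p65 WT (-0.46 ± 0.06, adjusted p = 1.6e-07). For p65 2CS against vector it did not pass (0.05 ± 0.07, adjusted p = 0.63, interval -0.08 to 0.18). BID, which promotes death, and BCL2L1, which mainly opposes it, thus passed the test in the same comparisons and in the same direction.

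BBC3 (ENSG00000105327, chromosome 19, 47220822 to 47232766, minus strand) encodes PUMA, a potent BH3-only protein. It was at 60.7, 60.8 and 60.0 CPM with p65 2CS, 58.8, 55.8 and 56.9 CPM with p65 WT and 69.2, 75.9 and 71.1 CPM with vector. All p65 libraries were below all vector libraries, and the p65 WT libraries were below those of p65 2CS. BBC3 fell by 16.1% with p65 2CS (log2 fold -0.25 ± 0.05, adjusted p = 5.8e-05) and by 20.7% with p65 WT (-0.34 ± 0.05, adjusted p = 3.4e-07). Although the ranges of the forms did not overlap, their difference did not pass (0.08 ± 0.05, adjusted p = 0.21, interval -0.02 to 0.18).

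PMAIP1 and BCL2L11 did not pass the test in any comparison. PMAIP1 (ENSG00000141682, chromosome 18, 59899948 to 59904306, plus strand) was at 392 to 414 CPM with p65 2CS, 390 to 408 CPM with p65 WT and 407 to 419 CPM with vector. Its log2 folds against vector were -0.04 ± 0.03 with p65 2CS and -0.05 ± 0.03 with p65 WT (adjusted p = 0.32 and 0.16), and with no scaling beyond library totals the p65 WT value was -0.09 (adjusted p = 0.0065). BCL2L11 (ENSG00000153094, chromosome 2, 111119378 to 111168447, plus strand), which encodes BIM and is spliced into forms of different potency, was at 32.2 to 33.6 CPM with p65 2CS, 29.9 to 33.8 CPM with p65 WT and 34.6 to 36.1 CPM with vector. All p65 libraries lay below the vector libraries, yet the log2 folds of -0.10 ± 0.06 with p65 2CS and -0.13 ± 0.06 with p65 WT did not pass (adjusted p = 0.28 and 0.11). With library totals alone, BCL2L11 passed for p65 WT at -0.18 (adjusted p = 0.028). The non-coding MIR4435-2HG lies over 10.9% of its exon bases on the other strand, with 2354 reads against 5594, and was lower with p65 WT than with vector (-0.28, adjusted p = 0.043), and reads of this gene and of BCL2L11 cannot be told apart there.

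**Figure D2:**
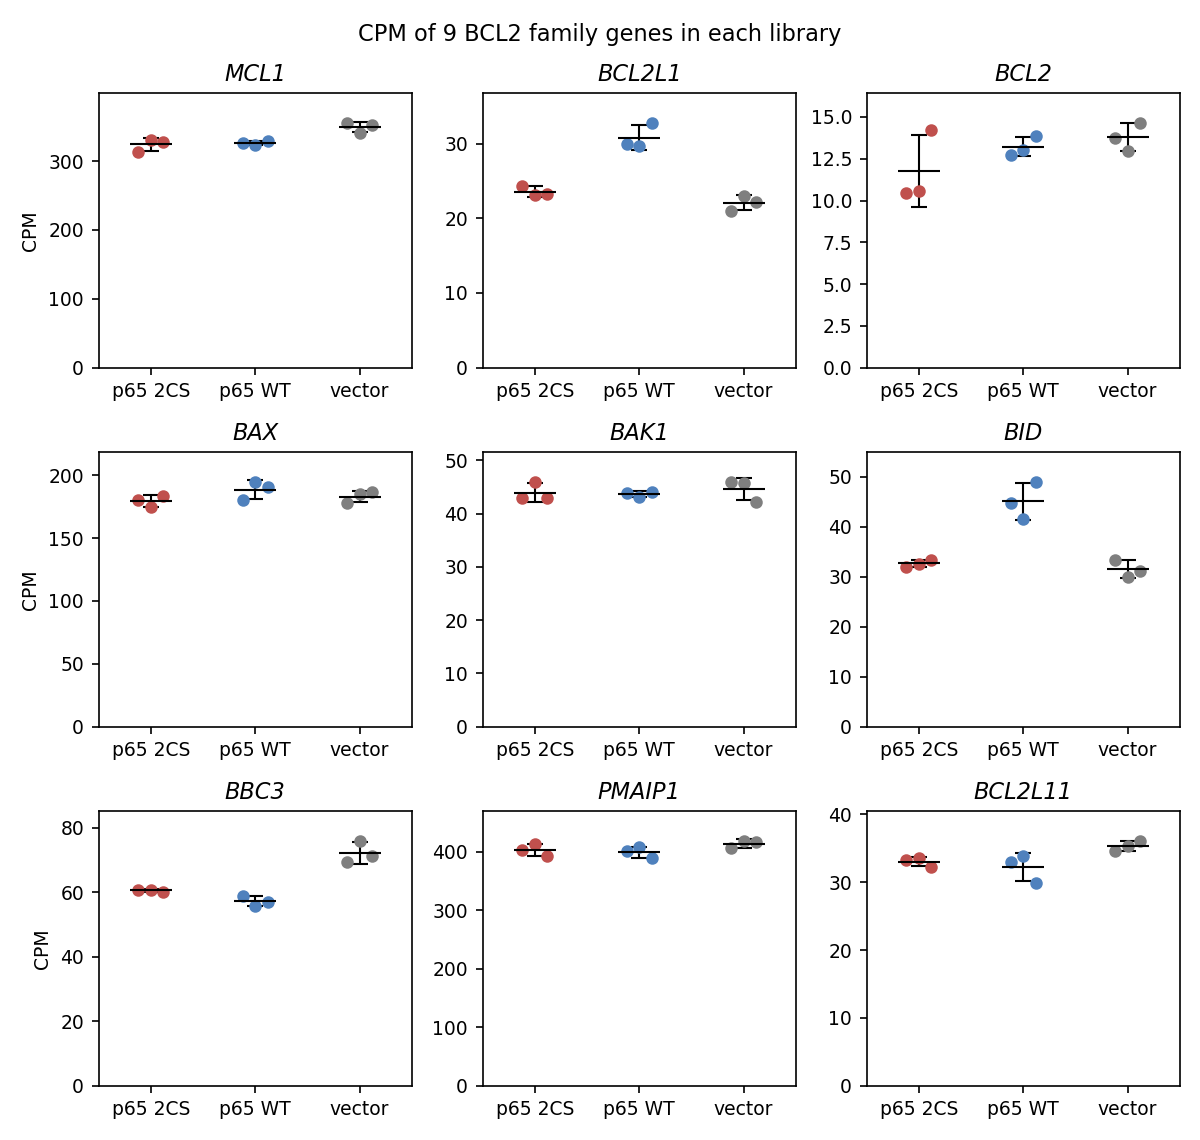
CPM of the 9 tested members in each library (points), with group mean and SD (bars, n = 3) and each axis starting at 0, for p65 2CS, p65 WT and vector from left to right. BCL2L1 and BID stand higher with p65 WT alone (29.7 to 32.8 and 41.6 to 49.0 CPM), and BBC3 and MCL1 stand lower with both p65 forms than with vector.

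Counted over the family, 4 of the 9 tested members passed with p65 WT against vector, BCL2L1 and BID higher and BBC3 and MCL1 lower. That is 44.4% of them, where 28.8% of all 18195 genes tested passed (16.4% higher and 12.5% lower). Scaled by library totals alone, the genes called in that comparison were 2561 higher and 3642 lower, in place of 2976 and 2268. With p65 2CS against vector 2 of 9 passed, BBC3 and MCL1, both lower, against a background of 23.4%. Between the forms 2 of 9 passed, BID and BCL2L1, both lower with p65 2CS, against a background of 31.2%. With so few genes these shares give no result about the family. The libraries of the groups did not overlap for 5 of the 9 members with p65 WT against vector, where 40.5% of all genes did not, for 4 with p65 2CS against vector (36.6% of all genes) and for 3 between the forms (40.7% of all genes). The comparisons share their groups, and the values of each stand side by side above.

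The differences were small in size. The largest absolute log2 fold of a member was 0.52 with p65 WT against vector, 0.25 with p65 2CS against vector and 0.46 between the forms, so none of the 9 tested members changed by 2-fold in any comparison. BCL2A1 has no fitted fold. The median log2 fold of the members was -0.05, -0.04 and -0.0085 in that order of comparisons, against -0.02, -0.0018 and 0.0030 over all genes tested. BID stood at percentile 84.7 of all genes tested by absolute log2 fold for p65 WT against vector and BCL2L1 at 83.4, BBC3 at 75.3 and MCL1 at 35.7. The RELA transcript changed by 8.56 ± 0.05 with p65 2CS and by 7.05 ± 0.05 with p65 WT on the same scale.

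**Figure D3:**
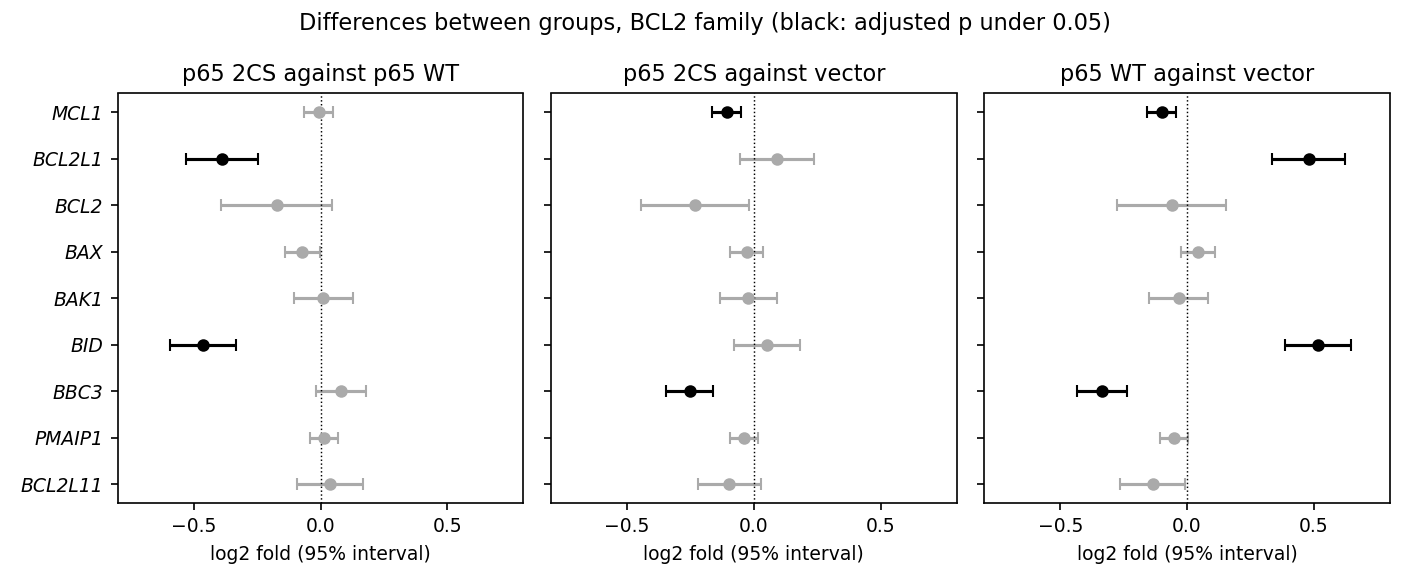
Log2 folds of the 9 tested members with 95% intervals, one panel per comparison, black where the adjusted p was under 0.05 and grey otherwise. All points lie between -0.46 and 0.52. BCL2L1 and BID carry black points in the comparisons that involve p65 WT, and BBC3 and MCL1 in the comparisons with vector.

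Outside the 10 members, 13 further family genes were listed, of which 11 were tested. With p65 WT against vector 5 rose and 1 fell, and their median was 0.05 on the log2 scale. With p65 2CS against vector 2 rose and 1 fell, and the median was -0.05. The 1 fall became 2 without p65 WT replicate 6, with library totals alone, in limma-voom and with only the 6 libraries compared, and with library totals alone it also became 2 with p65 WT. Of all genes tested 28.8% passed with p65 WT and 23.4% with p65 2CS against vector. BCL2L14 (BCL-G) rose most. It was at 1.28, 0.835 and 0.843 CPM with p65 2CS, 1.89, 1.84 and 2.66 CPM with p65 WT and 0.107, 0.147 and 0.0553 CPM with vector, the last from 6 reads in all. Its log2 fold was 3.14 ± 0.53 with p65 2CS (adjusted p = 1.6e-05) and 4.26 ± 0.48 with p65 WT (adjusted p = 1.4e-09), and -1.13 ± 0.32 between the forms (adjusted p = 0.0062). The BH3-only gene HRK, known for its part in neuronal death, fell to 22.2 ± 0.940 CPM with p65 2CS and 17.8 ± 1.95 CPM with p65 WT, against 30.3 ± 0.599 CPM with vector (adjusted p = 9.2e-06 and 9.8e-11). It was higher with p65 2CS than with p65 WT (0.32 ± 0.08, adjusted p = 0.0018). BIK, a BH3-only protein of the endoplasmic reticulum, was at 2.17 ± 0.752 CPM with p65 2CS and rose to 2.70 ± 0.190 CPM with p65 WT, against 1.40 ± 0.279 CPM with vector (adjusted p = 0.0053 for p65 WT).

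Other calls in that list included proteins of mitochondrial membranes. BCL2L13 rose to 86.2 ± 4.79 CPM with p65 2CS and 84.0 ± 2.10 CPM with p65 WT, against 70.1 ± 1.65 CPM with vector (adjusted p = 1.5e-06 and 1.3e-05). BNIP3, a mitophagy receptor, was at 31.3 ± 2.15 CPM with p65 2CS and 40.6 ± 2.61 CPM with p65 WT, against 32.3 ± 1.43 CPM with vector. It rose with p65 WT over vector (0.33 ± 0.07, adjusted p = 8.9e-05) and was lower with p65 2CS than with p65 WT (-0.38 ± 0.07, adjusted p = 1.0e-05). Between the forms 3 of the 11 genes were lower and 1 higher with p65 2CS, or 36.4% of them, where 31.2% of all genes tested passed. Without p65 WT replicate 6 only 1 was lower. BCL2L10 had no read and BCL2L15 had 71 over all libraries, and neither was tested.

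The death receptor arm, which leads to BID, held several of the larger changes. Of 13 genes 6 passed with p65 2CS against vector, all of them higher, where 23.4% of all genes tested passed and 12.1% were higher. With p65 WT against vector 6 rose and 1 fell, where 28.8% of all genes passed and 16.4% were higher. The medians were 0.06 and 0.12 on the log2 scale, against -0.0018 and -0.02 over all genes tested. BIRC3, an inhibitor of apoptosis and NF-kB target, rose most, to 6.51 ± 0.894 CPM with p65 2CS and 15.1 ± 1.63 CPM with p65 WT, against 2.28 ± 0.150 CPM with vector (adjusted p = 1.8e-09 and 8.3e-19). CFLAR, which encodes FLIP, the decoy that keeps caspase-8 from being activated, rose by 0.81 ± 0.06 with p65 2CS and by 0.96 ± 0.06 with p65 WT on the log2 scale (adjusted p = 1.2e-13 and 2.1e-16). CFLAR acts upstream of the cleavage of BID, and it averaged 50.1 ± 2.40 CPM with p65 2CS, 55.5 ± 4.29 CPM with p65 WT and 28.6 ± 1.24 CPM with vector.

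The receptor FAS, like BID and BCL2L1, passed in the comparisons that involve p65 WT. It was at 28.9 ± 0.846 CPM with p65 2CS and 55.8 ± 1.18 CPM with p65 WT, against 31.0 ± 1.45 CPM with vector, with a log2 fold of 0.85 ± 0.06 for p65 WT against vector (adjusted p = 1.2e-15) and -0.95 ± 0.06 between the forms (adjusted p = 5.8e-17). TNFRSF10B, a receptor for TRAIL, was at 252 ± 12.6 CPM with p65 2CS and 304 ± 5.67 CPM with p65 WT, against 236 ± 6.01 CPM with vector, and passed in all comparisons, between the forms at -0.28 ± 0.03 (adjusted p = 3.0e-09). CASP10, a relative of caspase-8, rose by 0.68 ± 0.14 with p65 2CS and by 0.52 ± 0.15 with p65 WT on the log2 scale (adjusted p = 0.00033 and 0.0063), and the forms did not differ past the threshold (0.16 ± 0.14, adjusted p = 0.40, interval -0.12 to 0.45). Between the forms 5 of the 13 were lower and 1 higher with p65 2CS, where 17.9% of all genes tested were lower and 13.4% higher. The list's median was -0.11, against 0.0030 over all genes tested. The 1 gene higher, and the 1 that fell with p65 WT against vector, was RIPK1, a kinase of the TNF receptor complex named here after its values were seen (0.21 ± 0.07, adjusted p = 0.016, and -0.20 ± 0.07, adjusted p = 0.028). It was not called between the forms without p65 WT replicate 6 or p65 2CS replicate 8, nor against vector when p65 WT replicate 6, vector replicate 2 or vector replicate 3 was left out, in DESeq2, or with no filter beyond 1 count.

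**Figure D4:**
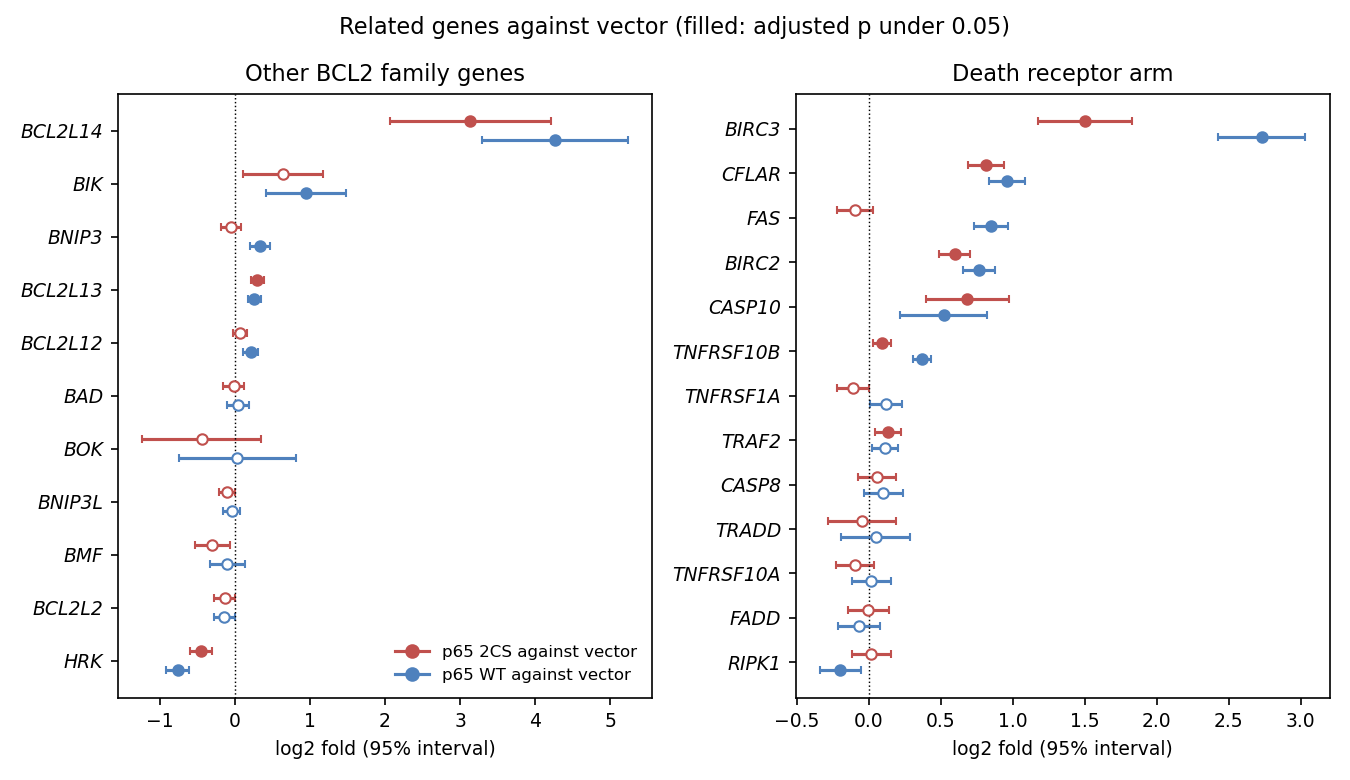
Log2 folds against vector with 95% intervals for 11 further BCL2 family genes (left) and 13 genes of the death receptor arm (right), for p65 2CS in red and p65 WT in blue, filled where the adjusted p was under 0.05. BCL2L14 and BIRC3 lie furthest to the right and HRK furthest to the left, and FAS is shifted with p65 WT but not with p65 2CS.

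Genes that act after the outer membrane opens showed small changes. Of 14 caspase and apoptosome genes 2 rose and 3 fell with p65 2CS against vector, and 1 rose and 3 fell with p65 WT against vector, where 23.4% and 28.8% of all genes passed. CASP9, the initiator on the apoptosome, fell with p65 WT by 0.26 ± 0.09 on the log2 scale (adjusted p = 0.018). Its p65 WT libraries were at 17.8, 25.2 and 20.8 CPM, and replicate 5 lay within the vector range of 24.9 to 25.9 CPM. CYCS, cytochrome c, fell with p65 2CS by 0.16 ± 0.03 (adjusted p = 0.00045). Between the forms 3 were higher and 1 lower with p65 2CS, led by DFFB, the caspase-activated nuclease (0.33 ± 0.09, adjusted p = 0.0027). That is 28.6% of the list, where 31.2% of all genes tested passed. The count of rises against vector depended on single libraries. It came to 0 with p65 2CS without vector replicate 1 or 2 or p65 2CS replicate 8 or 9, and to 1 without vector replicate 3. APAF1, the scaffold of the apoptosome, was the 1 rise with p65 WT (0.16 ± 0.05, adjusted p = 0.028) and was not called when vector replicate 1, vector replicate 2, p65 WT replicate 5 or p65 WT replicate 6 was left out. The 3 falls with p65 WT became 1 without p65 WT replicate 4, and CYCS, the 1 gene lower between the forms, was not called without p65 WT replicate 4 or p65 2CS replicate 8.

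Of 6 partners in the outer mitochondrial membrane 4 passed with p65 2CS against vector and 2 with p65 WT against vector, all of them lower. Of all genes tested 11.4% and 12.5% were lower in these comparisons and 23.4% and 28.8% passed, so that 2 of 6 is near the background. With size factors of the DESeq2 type, or with scaling computed without RELA, 1 of the 6 was also called higher with p65 WT. The channel gene VDAC3 fell by 0.23 ± 0.04 with p65 2CS and by 0.13 ± 0.04 with p65 WT on the log2 scale (adjusted p = 5.7e-05 and 0.020). VDAC1 fell with p65 2CS against p65 WT by 0.23 ± 0.03 (adjusted p = 4.5e-08), and MTCH2, a docking protein for cleaved BID, by 0.16 ± 0.04 (adjusted p = 0.0031). The 2 falls with p65 WT became 1 when vector replicate 1, vector replicate 3 or p65 WT replicate 4 was left out.

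Known regulators of the members were mixed. Of 14 transcription and turnover factors 2 rose and 2 fell with p65 2CS against vector, and 1 rose and 5 fell with p65 WT against vector, where 23.4% and 28.8% of all genes passed. MYC was at 160 ± 3.47 CPM with p65 2CS and 121 ± 5.92 CPM with p65 WT, against 157 ± 4.25 CPM with vector, and was higher with p65 2CS than with p65 WT (0.41 ± 0.04, adjusted p = 4.6e-12). DDIT3 (CHOP), which raises BCL2L11 and BBC3 under stress of the endoplasmic reticulum, fell with p65 WT by 0.48 ± 0.10 (adjusted p = 0.00028). With p65 2CS against vector DDIT3 did not pass (-0.14 ± 0.10, adjusted p = 0.31). It was higher with p65 2CS than with p65 WT (0.34 ± 0.10, adjusted p = 0.010). USP9X, which removes ubiquitin from MCL1 and so stabilises it, fell by 0.12 ± 0.03 with p65 2CS and by 0.18 ± 0.03 with p65 WT (adjusted p = 0.00040 and 8.2e-07). Between the forms 4 were higher and 1 lower with p65 2CS, or 35.7% of the list, where 31.2% of all genes tested passed. None was called lower without p65 WT replicate 6 or p65 2CS replicate 7 or 8. The 2 rises with p65 2CS against vector became 1 without vector replicate 2 or 3 or p65 2CS replicate 7 or 8, and the 1 rise with p65 WT became 2 without p65 WT replicate 6.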

How the data were processed

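Per the labels' protocols, poly-A RNA was fragmented and copied from random hexamers into libraries that were directional or not, without saying which. The submitters' processing notes name HISAT2 2.0.5 as the aligner, and the sources used here give no counting tool, strand setting or build. The authors deposited raw whole-number counts per gene. All 58735 gene identifiers, positions and symbols matched GENCODE 29, so positions are on GRCh38 by that match.

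The deposited counts were analysed with edgeR 4.0.16 in R 4.3.3: filterByExpr (18195 genes tested), TMM scaling, and the quasi-likelihood F test, fitted jointly to the 9 libraries by group. P-values were adjusted by Benjamini-Hochberg across the tested genes and called under 0.05. CPM uses TMM-scaled totals, and TPM uses the deposited gene lengths. Standard errors follow from the F statistic. The fit was also run on simulated counts with known changes in the p65 WT group alone, and the outcome of that run is not reported here. Within groups, libraries differed by more than sampling noise (chi-square per degree of freedom 1.88 to 2.53). Alternatives were DESeq2 1.42.0, limma-voom 3.58.1, other scalings and filters, only the libraries compared, and each library left out.

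The members and lists were chosen with earlier results of these data known. The text names all members, RELA, and from each list up to 3 genes per comparison with the largest called change, and a few called or unread genes beside them. Likeness of pattern was to be given for members called in all 3 comparisons, and there were none. Where DIABLO named 2 gene identifiers, the one with more counts was used. Some genes of the lists are counted but not reported here by name.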

Additional observations from a re-analysis of the deposited data

How the results depend on the processing

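Each of the 8 member differences past the threshold kept its direction and its call under all 17 alternatives, and the counts of members called stayed at 2 to 3 for p65 2CS against p65 WT and against vector and at 4 to 6 for p65 WT against vector. For the related lists, called genes numbered 21 to 29, 21 to 29 and 26 to 37 in the same order of comparisons. Differences that changed sign were all between the forms and far from the threshold. With scaling computed without RELA, BAK1 was at -0.0040 and PMAIP1 at -0.0024 on the log2 scale, and with library totals alone MCL1 was at 0.020. With 1 library left out, BAK1 lay between -0.026 and 0.032, BCL2L11 between -0.014 and 0.074, MCL1 between -0.025 and 0.016 and PMAIP1 between -0.0074 and 0.035. The cause was not tested. Genes called lower with p65 WT against vector numbered 2268, and 3642 with library totals alone, which moved the median of all genes from -0.02 to -0.07. Calls numbered 4, 2 and 2 members in DESeq2 and limma-voom for p65 WT over vector, p65 2CS over vector and p65 2CS over p65 WT, as in edgeR. Within the lists, library totals alone moved the caspase and apoptosome genes called higher against vector from 2 to 0 with p65 2CS and from 1 to 0 with p65 WT, those called lower with p65 WT from 3 to 5, and the regulators called higher between the forms from 4 to 7. DESeq2 called 1 in place of 2 caspase and apoptosome genes higher with p65 2CS and 1 in place of 3 lower with p65 WT. For levels between members, CPM per kb differs from TPM by a constant within a library, so it cannot change a ratio of genes and tests nothing. No paired analysis was possible because the groups share no replicate number. Depth limits BCL2A1, with 1 to 4 reads per group, and the precision of BCL2, with 180 to 270 reads per library.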
